A study of Mus musculus with 13 samples.

Results

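The genes described here are the 165 whose RNA peaked in Ly6D+Gfra2- common lymphoid progenitors (CLP), out of 24072 RefSeq identifiers counted. A gene was taken when both Ly6D+Gfra2- libraries of name prefix T lay above every other library of that prefix. Its mean there also had to be at least 2 times the mean of each other group and at least 10 CPM (counts per 1000000 counts of the library, leaving out the ribosomal RNA precursor NR_046233). That rule found 169 of 24071 identifiers, which is 0.702% of them. Siglech, Spib, Irf8 and Runx2, known from plasmacytoid dendritic cells, also met it and were left out by choice. With the same rule, 157 genes peaked in Ly6D-Gfra2- cells and 149 in Ly6D+Gfra2+ cells. The members were therefore selected on the prefix T values, and everything said about those values is description without a test. The prefix P libraries took no part in the choice.

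The series measured total RNA in 13 libraries of bone marrow CLP from WT mice of strain C57BL/6. Sorting by flow cytometry on the surface proteins Ly6D and Gfra2 gave 3 compartments, with 6 libraries of CLPLy6D-Gfra2-, 4 of CLPLy6D+Gfra2- and 3 of CLPLy6D+Gfra2+. No treatment, transgene or age is given in the labels. What the prefixes P and T stand for is not stated either. Prefix P holds 3 libraries of Ly6D-Gfra2- (replicates 1 to 3) and 2 of Ly6D+Gfra2- (replicates 1 and 2), whereas prefix T holds the remaining 8 libraries, among them all Ly6D+Gfra2+ libraries. The labels do not say that replicates come from separate animals, and p-values here reflect just how far these libraries spread.

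CLP are the bone marrow cells that give rise to B, T, natural killer and innate lymphoid cells and to some dendritic cells, and they depend on the interleukin-7 and Flt3 receptors. Ly6D is a surface protein anchored by a lipid, and its appearance marks CLP that have begun to turn toward the B lineage. Gfra2 helps the Ret kinase bind neurturin, a growth factor best known from neurons. Plasmacytoid dendritic cells, which secrete type I interferon, can develop from lymphoid progenitors. The members Cd300c, Cox6a2, Cybb, Pld4 and Rnase6 are known from them.

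The libraries held 6892728 to 23705975 counts, and 3 counts correspond to 0.143 to 0.444 CPM. The ribosomal RNA precursor took 2.07 to 11.6% of them. The lymphoid progenitor list of 12 genes was detected in full in every group, with Flt3 at 781 to 1439 CPM, Il7r at 356 to 1122 CPM and Kit at 102 to 339 CPM over the 13 libraries. Ly6d was at 0.668 to 9.48 CPM in 5 of the Ly6D-Gfra2- libraries. The library labelled Ly6D-Gfra2- replicate 3 goes against its label, with Ly6d at 239 CPM, inside the range of the sorted Ly6D+ libraries. The prefix P comparison below leaves it out and gives the value with it alongside. Gfra2 was at 288 to 476 CPM in the Gfra2+ libraries and at 15.8 CPM or less in the other 10.

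The promoters of 4 members are printed. Il17rb shares its start region with a second member, Chdh. Fcer1g, Csf2rb2 and Cybb are receptor or host-defence genes. They were also higher in prefix P when Ly6D-Gfra2- replicate 3 is left out, and overlapped with it included. Whether these sequences play a part in the members' levels was not tested. Each window runs from 250 bases before to 50 after the RNA start, in RefSeq coordinates of GRCm38.p6, all on the minus strand. They are Il17rb at chr14:30008847-30009146, Fcer1g at chr1:171234300-171234599, Csf2rb2 at chr15:78305672-78305971 and Cybb at chrX:9469275-9469574. In the first, capitals mark the 103 bases between the start of Il17rb and an RNA start of Chdh at 30009000, which is transcribed in the opposite direction. The gene span of Chdh begins earlier, at 30008901, so most of these bases lie inside it. In the others, capitals mark the letters searched for on either strand: the Runx motif TGTGGT, the PU.1-type ETS motif GAGGAAGT and the ETS-IRF composite GGAANNGAA.
Il17rb: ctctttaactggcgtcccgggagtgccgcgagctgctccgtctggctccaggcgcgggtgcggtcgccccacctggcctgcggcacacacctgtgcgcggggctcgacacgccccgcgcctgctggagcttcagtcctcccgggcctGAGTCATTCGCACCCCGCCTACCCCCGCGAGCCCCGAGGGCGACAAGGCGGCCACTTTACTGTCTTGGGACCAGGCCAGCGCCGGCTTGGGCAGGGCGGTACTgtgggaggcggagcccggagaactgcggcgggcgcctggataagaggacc
Fcer1g: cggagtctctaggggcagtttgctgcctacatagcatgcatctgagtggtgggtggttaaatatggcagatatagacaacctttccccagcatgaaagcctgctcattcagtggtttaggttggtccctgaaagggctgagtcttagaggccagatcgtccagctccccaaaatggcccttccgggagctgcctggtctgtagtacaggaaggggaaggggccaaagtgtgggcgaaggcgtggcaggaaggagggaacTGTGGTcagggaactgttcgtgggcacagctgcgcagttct
Csf2rb2: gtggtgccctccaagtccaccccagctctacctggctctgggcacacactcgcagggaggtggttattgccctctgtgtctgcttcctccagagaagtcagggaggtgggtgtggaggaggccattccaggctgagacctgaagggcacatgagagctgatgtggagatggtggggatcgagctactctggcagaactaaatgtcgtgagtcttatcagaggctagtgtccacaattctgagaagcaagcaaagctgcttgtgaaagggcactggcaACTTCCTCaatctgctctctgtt
Cybb: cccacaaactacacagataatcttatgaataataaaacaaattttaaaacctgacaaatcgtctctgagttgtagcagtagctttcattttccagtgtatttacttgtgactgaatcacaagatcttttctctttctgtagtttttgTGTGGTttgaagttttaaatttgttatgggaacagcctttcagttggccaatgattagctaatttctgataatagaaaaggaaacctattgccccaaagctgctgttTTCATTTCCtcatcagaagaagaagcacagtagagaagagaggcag

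The letters of the Runx motif occur once in the Fcer1g window, within its first 50 transcribed bases, and once in the Cybb window, before the start. Cybb also holds the ETS-IRF composite just after its start, and Csf2rb2 holds the PU.1-type motif just after its own. Over all members with an entry, 157 promoter windows of 122 genes were read and compared with all 32851 windows of the same length. The Runx motif was in 13.4% of member windows and 16.8% of all windows, and the ETS-IRF composite in 9.55% against 8.24%. The PU.1-type motif was in 5.73% against 3.20%, and CCCNNGGG, the core of the EBF site, in 21.0% against 13.7%. The E-box CAGCTG was in 19.1% against 16.3%, CAGGTG in 18.5% against 20.2%, and the octamer ATGCAAAT in 0.637% against 1.74%. Letter matches describe these windows and say nothing of binding.

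In prefix T, the ratio of the Ly6D+Gfra2- mean to the higher of the other means ranged from 2.0 to 62.6, with a median of 2.73. It was under 3 in 100 members, between 3 and 5 in 36 and at least 5 in 29. Ly6D-Gfra2- cells held the second-highest mean for 136 members and Ly6D+Gfra2+ cells for 29. That both other groups lay below Ly6D+Gfra2- was required by the rule. Which of them was lower was not set against all genes, so nothing is read from this split. Members just inside the fold threshold were Trib1 (ratio 2.0) and Tex2 (2.02), and just outside it were Rnf166 and Ate1 (both 1.99). Just inside the level threshold were Cd300c and S100a13 (both 10.1 CPM), and just outside were Zeb2os (9.93 CPM) and Olfr1034 (9.76 CPM). The Ly6D+Gfra2- libraries of prefix T lay more than 2 times apart for 36 of 165 members. Between the prefix P Ly6D+Gfra2- libraries, 88 of 165 members were more than 2 times apart. The rule required both prefix T libraries to be high, so these counts are not compared. Shares over all genes were not taken.

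The median level of the members was 32.8 and 37.7 CPM in the prefix T Ly6D+Gfra2- libraries, 10.1 to 11.5 CPM in the Ly6D-Gfra2- libraries and 3.21 to 8.23 CPM in the Ly6D+Gfra2+ libraries. In prefix P it was 15.6 and 17.9 CPM in Ly6D+Gfra2- cells and 12.7 to 17.5 CPM in the libraries labelled Ly6D-Gfra2-. The prefix P medians of the sorts overlap. Of 165 members, 16 to 46 (9.70 to 27.9%) were at 0 in a Gfra2+ library and 18 (10.9%) in Ly6D+Gfra2- replicate 1. The share at 0 among 9038 genes taken at 10 CPM or more was 0.974 to 4.47% in Gfra2+ libraries and 2.15% in replicate 1. Members had to be low in Gfra2+ cells by the rule, so nothing is read from their zeros there. The Gfra2+ libraries and replicate 1 also had the fewest genes with a count, 10837 to 12369 in Gfra2+ and 11636 in replicate 1, against 12904 to 13969 in the others. The part of these low gene counts in the zeros was not tested.

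**Figure D1:**
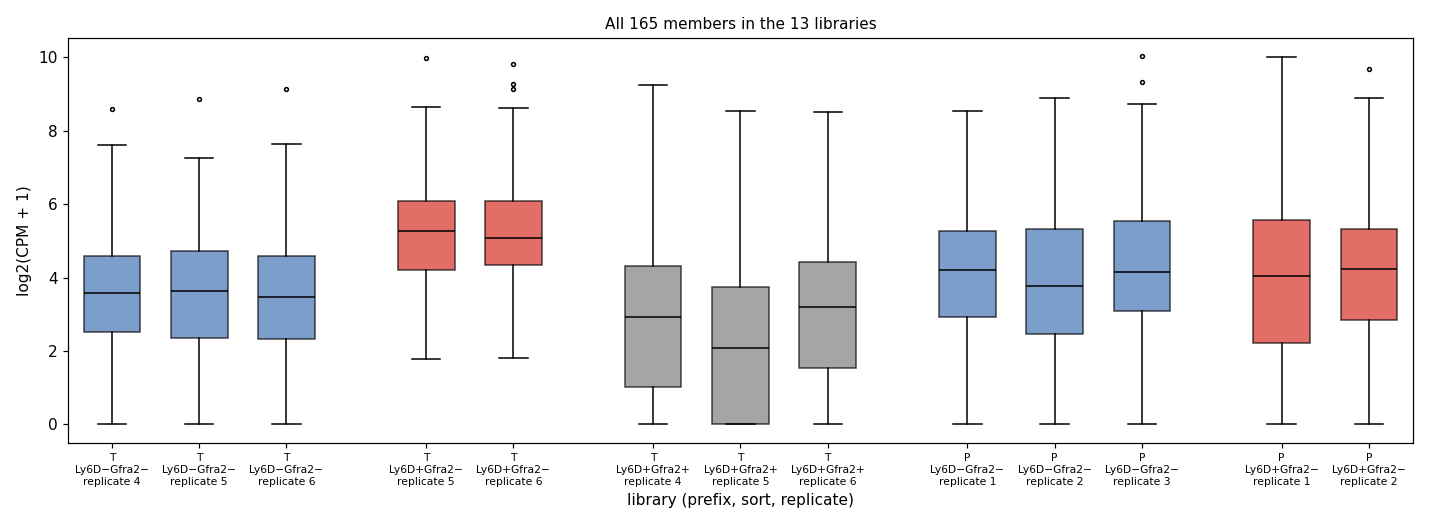
Level of the 165 members in each of the 13 libraries, as log2(CPM + 1), with libraries grouped by name prefix and sort; boxes span the quartiles, lines are medians and whiskers reach 1.5 times the quartile range. The red prefix T boxes, whose values chose the members, sit above the others, and the prefix P boxes lie at similar heights.

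The step from Ly6D-Gfra2- to Ly6D+Gfra2- was then read in prefix P, with replicates 1 and 2 of each sort. With replicate 3 left out, 17 members (10.3%) had all 4 Ly6D+Gfra2- libraries above the other 8, as did 44 of all 12110 genes (0.363%). The order within prefix T was part of the choice of members, so nothing is read from the difference between these shares. They include the receptors Lifr, Il17rb, Fcer1g and Rell1, the host-defence and transport genes Ctsh, Cybb and Tfrc, and the cytoskeletal Strip2 and Carmil1. Of 160 members with enough counts, 34 (21.2%) were higher in Ly6D+Gfra2- without overlap of the libraries, where 14.0% of all 12110 genes tested were. Lower without overlap were 26 members (16.2%), against 21.0% of all genes. The median log2 fold change of the members was 0.14, and that of all genes was 0.00. Positive fold changes were seen in 93 members (58.1%), against 50.1% of all genes.

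No gene passed the test in this comparison of 2 libraries with 2. With edgeR's quasi-likelihood test and Benjamini-Hochberg adjustment, 0 of 12110 genes (0%) and 0 of 160 members had an adjusted p under 0.05, and adjusted p of the members ran from 0.990 to 0.999. At an unadjusted p under 0.05 there were 555 genes, 2.96% of all genes higher and 1.63% lower. Among the members, 12 (7.50%) were higher and 1 (0.625%), the mitochondrial ribosomal RNA methylase Mrm1, was lower. DESeq2 called 89 genes and 5 members (Ly6d, Cox6a2, Carmil1, Tfrc and Atp1b1), and limma voom called 0 genes. With the library labelled Ly6D-Gfra2- replicate 3 included, 14 of 162 members (8.64%) stayed higher without overlap, near the 7.99% of all genes. The median log2 fold change of the members was then 0.04, against -0.03 over all genes.

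**Figure D2:**
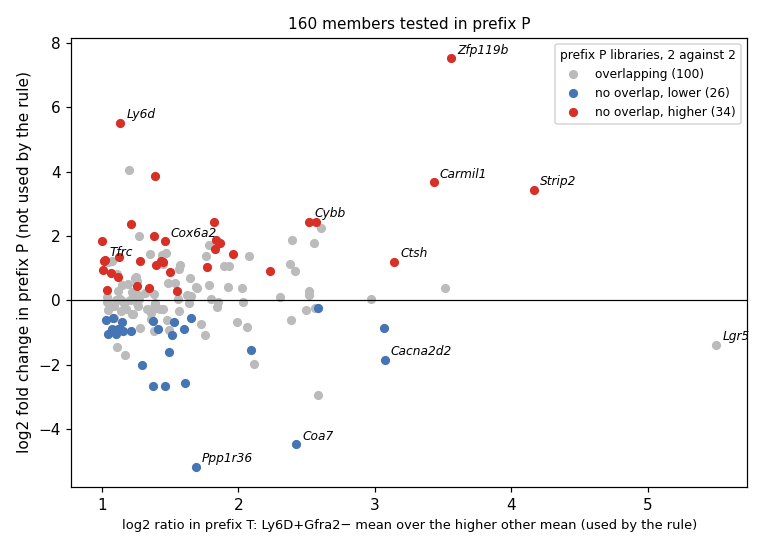
Each of the 160 members tested in prefix P: the horizontal axis is the log2 ratio in prefix T that chose it, and the vertical axis is its log2 fold change in prefix P, Ly6D+Gfra2- minus Ly6D-Gfra2- (replicates 1 and 2). Red points (34) are higher and blue points (26) lower without overlap, and 100 grey points overlap; the largest prefix T ratio shown, Lgr5, is not positive in prefix P.

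Ly6D-Gfra2- replicate 3, the library left out, lay above both other prefix P Ly6D-Gfra2- libraries in 63 of 160 members (39.4%), against 33.1% of all genes. Among the 34 members higher without overlap it did so in 25, and among all 1697 genes higher in that way in 67.4%. It did so in 14 of the 17 members, all but Cdc14b, Ppm1l and Rell1, and in 86.4% of the 44 genes with the same order of libraries. These sets were picked for low values in the other replicates, so the shares are given as description.

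Immune receptors and their signalling partners were 18 members. In prefix P, 16 of the 18 had a positive fold change, 6 were higher without overlap (Csf2rb2, Fcer1g, Il17rb, Lifr, Ly6d and Rell1) and 0 were lower, with a median log2 fold change of 0.55. Over all genes tested, 50.1% had a positive fold change, 14.0% were higher and 21.0% lower without overlap, and the same shares are the background of the groups and lists that follow. The step of Ly6d was set by the sort, and none of the 18 passed the test. The groups of function named here were formed after the members were known.

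Fcer1g (NM_010185, chromosome 1, 171229572 to 171234349) encodes the signalling chain shared by activating Fc receptors and other receptors of innate cells. In prefix T its level was 138 and 114 CPM in Ly6D+Gfra2-, at least 2 times that of the other libraries, which held 29.3, 37.9 and 43.4 CPM (Ly6D-Gfra2-) and 7.24, 25.2 and 6.68 CPM (Ly6D+Gfra2+). In prefix P it was 184 and 125 CPM against 95.7 and 67.2 CPM, with 146 CPM in replicate 3. All 4 Ly6D+Gfra2- libraries were above the rest apart from replicate 3. The prefix P log2 fold change was 1.05 (SE 0.45).

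Lifr, the receptor chain for leukaemia inhibitory factor (chromosome 15, 7090610 to 7197489), had nearly equal levels in the prefix T Ly6D+Gfra2- libraries, 128 and 132 CPM. The other prefix T libraries held 40.3, 19.2 and 50.7 CPM (Ly6D-Gfra2-) and 42.4, 34.9 and 17.7 CPM (Ly6D+Gfra2+). In prefix P, Lifr was at 106 and 70.6 CPM against 43.6 and 21.1 CPM, and at 110 CPM in replicate 3. The groups do not overlap without that library, and the log2 fold change was 1.58 (SE 0.63).

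Csf2rb2, which encodes a beta chain of the interleukin-3 receptor in mice, was at 116 and 55.6 CPM in prefix T Ly6D+Gfra2- libraries. It was at 13.2, 29.2 and 28.3 CPM in Ly6D-Gfra2- and at 3.91, 15.9 and 32.0 CPM in Ly6D+Gfra2+. In prefix P the values were 101 and 28.9 CPM against 28.5 and 13.9 CPM, with 75.7 CPM in replicate 3. Without replicate 3, the sorts were separated there by a narrow gap (log2 fold change 1.77, SE 0.83). Csf2rb is a near-identical neighbour of this gene, and how reads shared by the pair were counted is not stated.

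Il17rb, a receptor chain for interleukin-25 found on innate lymphoid cells, was at 38.0 and 58.6 CPM in prefix T Ly6D+Gfra2-. It was at 22.4, 8.43 and 22.4 CPM in Ly6D-Gfra2- and at 2.76, 5.86 and 22.8 CPM in Ly6D+Gfra2+. In prefix P it was at 41.2 and 43.7 CPM against 12 and 27.2 CPM, with 35.9 CPM in replicate 3. Here all 4 Ly6D+Gfra2- libraries lay above all 9 others. The log2 fold change was 1.20 (SE 0.79).

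Chdh, which encodes the mitochondrial choline dehydrogenase, begins beside Il17rb on the opposite strand, and their promoter windows share 203 bases, among them the 103 in capitals above. It was at 389 and 354 CPM in prefix T Ly6D+Gfra2-, at 183, 152 and 199 CPM in Ly6D-Gfra2-, and at 129, 16.9 and 125 CPM in Ly6D+Gfra2+. The prefix P levels were 316 and 475 CPM against 200 and 265 CPM, with 421 CPM in replicate 3 (log2 fold change 0.85, SE 0.32). Both genes of the pair thus showed the same order of the sorts in both prefixes when replicate 3 is set aside. A further member, the calcium channel gene Cacna1d, overlaps the far end of Chdh and was at 47.6 and 40.9 CPM against 32.0 and 59.2 CPM in prefix P, which overlap. Whether reads were counted by strand is not stated, so reads of overlapping genes cannot be told apart.

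Rell1, a relative of the tumour necrosis factor receptors, was at 52.0 and 48.5 CPM in prefix T Ly6D+Gfra2-, at 12.8 to 17.6 CPM in Ly6D-Gfra2- and at 13.2 to 31.6 CPM in Ly6D+Gfra2+. Prefix P gave 65.4 and 62.0 CPM against 42.7 and 40.8 CPM, and replicate 3 was lower still, at 20.7 CPM. The log2 fold change was 0.71 (SE 0.58).

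Ly6d (chromosome 15, 74762056 to 74763567) is both a member and the sort marker, so its step from Ly6D- to Ly6D+ was set by the sort. Among the Ly6D+ cells of prefix T, its level was 382 and 562 CPM in Ly6D+Gfra2-. It was 172, 262 and 211 CPM in Ly6D+Gfra2+, a ratio of 2.20 between means. The rule for members required that order and a ratio of at least 2. In prefix P the Ly6d levels were 154 and 182 CPM against 7.57 and 0.668 CPM, with 239 CPM in replicate 3 (log2 fold change 5.52, SE 1.06, without replicate 3).

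Other immune receptors did not separate the sorts in prefix P. Il2rb, the beta chain of the interleukin-2 and interleukin-15 receptors, was at 32.0 and 30.8 CPM in Ly6D+Gfra2-, at 7.66, 0.568 and 9.78 CPM in Ly6D-Gfra2- and at 0, 0 and 0.334 CPM in Ly6D+Gfra2+. With 3 counts in the last group together, its ratio there is 280 with a 95% counting interval of 95.4 to 1362. Such intervals and bounds cover counting error only. Levels in prefix P were 2.15 and 1.04 CPM against 0.113 and 5.01 CPM, at which the libraries overlap.

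Cd28, the T-cell co-stimulatory receptor, had 40.0 and 76.0 CPM in prefix T Ly6D+Gfra2-, 12.8, 36.2 and 23.7 CPM in Ly6D-Gfra2-, and, for Ly6D+Gfra2+, 1.49, 1.88 and 0.445 CPM. In prefix P the sorts overlapped, at 88.4 and 134 CPM against 138 and 78.8 CPM (log2 fold change 0.14, SE 0.47). Its low level in Gfra2+ cells is the wider step, 45.6 times between means, against 2.40 times over Ly6D-Gfra2- cells.

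Thy1, a surface protein of T cells and early progenitors, was at 30.7 and 22.4 CPM in prefix T Ly6D+Gfra2-, at 0.148 to 14.5 CPM in Ly6D-Gfra2- and at 0 to 10.5 CPM in Ly6D+Gfra2+. Prefix P libraries held 0 and 6.41 CPM against 2.48 and 0.0954 CPM. Cd300c, which encodes a myeloid surface receptor, was at 3.17 and 17 CPM in prefix T Ly6D+Gfra2-, at 0, 1.61 and 1.04 CPM in Ly6D-Gfra2- and at 0 in all Gfra2+ libraries. Against a floor of 3 counts over the Gfra2+ group, Cd300c was at least 89.8-fold higher in Ly6D+Gfra2-. In prefix P its values overlap, at 1.14 and 1.59 CPM against 0.452 and 1.72 CPM. The remaining receptors of the group, among them Havcr2, Cx3cr1, Cd72 and the RP105 partner Ly86, had prefix P log2 fold changes of 0.05, 1.08, 0.12 and 0.22, with overlapping libraries.

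Lysosomal, endosomal and host-defence genes were 15 members, of which Ctsh, Cybb and Tfrc were higher in prefix P without overlap and 3 were lower (Lamtor4, Rilpl2 and Clcn5). Cybb (chromosome X), the catalytic subunit of the phagocyte NADPH oxidase, was at 101 and 72.2 CPM in prefix T Ly6D+Gfra2-, at 10.9, 26.4 and 8.15 CPM in Ly6D-Gfra2- and at 0.805, 0 and 28.3 CPM in Ly6D+Gfra2+. In prefix P it was at 37.1 and 46.2 CPM against 3.39 and 12.7 CPM, with 46.3 CPM in replicate 3. When replicate 3 is set aside, Cybb was higher in Ly6D+Gfra2- in both prefixes, an order that the rule required in prefix T. Its log2 fold change in prefix P was 2.44 (SE 0.97).

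Ctsh, which encodes the lysosomal protease cathepsin H (chromosome 9, 90054267 to 90076095), was at 29.2 and 60.3 CPM in prefix T Ly6D+Gfra2-. It was at 3.09, 7.95 and 4.15 CPM in Ly6D-Gfra2- and at 2.30, 0 and 9.68 CPM in Ly6D+Gfra2+. In prefix P the values were 40.4 and 52.3 CPM against 20.9 and 21.9 CPM, with 45.3 CPM in replicate 3. The Ly6D-Gfra2- level was higher in prefix P than in prefix T, and the ratio of means was 8.84 in prefix T and 2.17 in prefix P (log2 fold change 1.21, SE 0.70). A second cathepsin gene, Ctsb, was at 281 and 219 CPM against 227 and 130 CPM in prefix P, which overlap.

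Tfrc, the transferrin receptor that brings iron into dividing cells, was among the most abundant of the members' RNAs by CPM, at 1005 and 897 CPM in prefix T Ly6D+Gfra2-. It was at 385, 467 and 562 CPM in Ly6D-Gfra2- and at 605, 375 and 366 CPM in Ly6D+Gfra2+. The prefix P levels were 1027 and 823 CPM against 373 and 477 CPM, with 1049 CPM in replicate 3 (log2 fold change 1.23, SE 0.27). The ratio of means to Ly6D-Gfra2- was 2.02 in prefix T and 2.17 in prefix P. The mitosis list of 15 genes summed to 3869 to 6000 CPM in the prefix P Ly6D+Gfra2- libraries and to 4026 to 4828 CPM in replicates 1 and 2 of Ly6D-Gfra2-, and its part in the result was not tested.

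**Figure D3:**
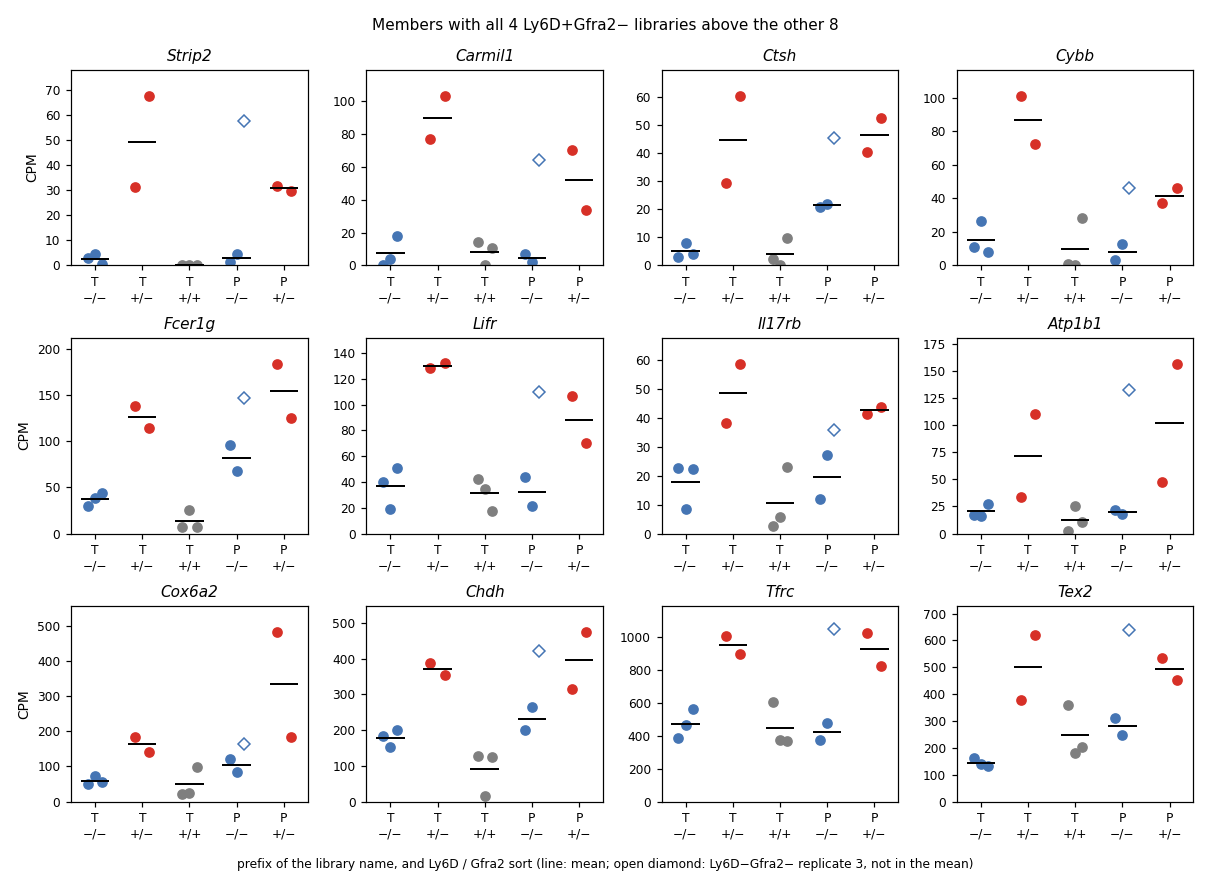
CPM in each library for 12 of the 17 members whose Ly6D+Gfra2- libraries all lay above the other libraries when Ly6D-Gfra2- replicate 3 is left out. Columns give prefix and sort (−/− is Ly6D-Gfra2-, +/− is Ly6D+Gfra2-, +/+ is Ly6D+Gfra2+). Dots are libraries, lines are means, and the open diamond is the library labelled Ly6D-Gfra2- replicate 3. The diamond lies among or above the red dots for every gene drawn except Il17rb.

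Pld4 and Rnase6, an endosomal nuclease and a secreted ribonuclease, were overlapping in prefix P. Pld4 was at 69.4 and 40.5 CPM in prefix T Ly6D+Gfra2-, at 12.1 to 26.9 CPM in Ly6D-Gfra2- and at 9.51 to 31.9 CPM in Ly6D+Gfra2+. Prefix P gave 13.7 and 34.4 CPM against 12.8 and 31.1 CPM. Rnase6 was at 16.7 and 25.9 CPM in prefix T Ly6D+Gfra2- and at 15.7, 3.31 and 3.85 CPM in Ly6D-Gfra2-, and in prefix P at 20.02 and 7.45 CPM against 28.6 and 17.9 CPM.

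The cytoskeleton group of 8 members held the largest single ratio in prefix T, that of Fhod3, and had a median ratio of 4.23. Strip2 (NM_177204, chromosome 6, 29916976 to 29959681), a subunit of the STRIPAK phosphatase and kinase complexes, was at 31.2 and 67.5 CPM in prefix T Ly6D+Gfra2-. It was at 2.96, 4.55 and 0.741 CPM in Ly6D-Gfra2- and at 0 in all 3 Gfra2+ libraries. Against 3 counts over that group, it was at least 439-fold higher in Ly6D+Gfra2-. In prefix P the levels were 31.8 and 29.7 CPM against 1.47 and 4.48 CPM, and 57.7 CPM in replicate 3. The prefix P step had the same direction as in prefix T, with a log2 fold change of 3.44 (SE 1.14).

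Carmil1 (NM_026825, chromosome 13, 24012481 to 24280802), which uncaps actin filaments at the leading edge of cells, was at 77.0 and 103 CPM in prefix T Ly6D+Gfra2-. It was at 0.537, 4.07 and 17.9 CPM in Ly6D-Gfra2- and at 14.3, 0 and 10.8 CPM in Ly6D+Gfra2+. Levels in prefix P were 70.4 and 33.5 CPM against 7.11 and 2.003 CPM, with 64.0 CPM in replicate 3. All 4 Ly6D+Gfra2- libraries exceeded the others apart from replicate 3, and the log2 fold change was 3.67 (SE 1.0). DESeq2 gave it an adjusted p of 0.014.

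Fhod3, an actin-nucleating formin, had the largest ratio of all members in prefix T, 62.6, with most of it in 1 library. It was at 22.2 and 5.85 CPM in Ly6D+Gfra2-, at 0.269, 0 and 0 CPM in Ly6D-Gfra2- and at 0.115, 0 and 0.556 CPM in Ly6D+Gfra2+. Prefix P libraries held 8.23 and 0.11 CPM against 0 and 0.238 CPM, too few counts to enter the test.

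Metabolic and mitochondrial genes were 12 members. Cox6a2 (chromosome 7, 128205435 to 128206366), a muscle-type subunit of cytochrome c oxidase that plasmacytoid dendritic cells also express, was at 185 and 140 CPM in prefix T Ly6D+Gfra2-. It was at 48.9, 73.0 and 55.1 CPM in Ly6D-Gfra2- and at 20.9, 25.7 and 99.3 CPM in Ly6D+Gfra2+. In prefix P it was at 483 and 183 CPM against 122 and 83.3 CPM, with 164 CPM in replicate 3. Apart from replicate 3, every other library lay below all 4 Ly6D+Gfra2- libraries, and the log2 fold change was 1.84 (SE 0.52). Nme6 was also higher in prefix P without overlap, at 18.6 and 6.57 CPM against 1.24 and 5.49 CPM.

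Coa7, an assembly factor of the same oxidase, ran opposite to Cox6a2 in prefix P. It was at 19.6 and 22.2 CPM in prefix T Ly6D+Gfra2-, at 3.26 to 4.64 CPM in Ly6D-Gfra2- and at 0, 0 and 8.01 CPM in Ly6D+Gfra2+. The prefix P levels were 0 and 0.602 CPM against 8.92 and 5.49 CPM (log2 fold change -4.48, SE 2.39). Acsbg3, of the bubblegum family of acyl-CoA synthetases, was at 44.8 and 18.8 CPM in prefix T Ly6D+Gfra2- and overlapped in prefix P, at 8.99 and 2.74 CPM against 4.29 and 10.6 CPM.

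Transporters and channels were 7 members. Atp1b1 (chromosome 1, 164437099 to 164458355), the beta subunit of the sodium pump, was at 33.7 and 110 CPM in prefix T Ly6D+Gfra2-, at 17.2, 16.4 and 27.6 CPM in Ly6D-Gfra2- and at 1.95, 25.1 and 10.8 CPM in Ly6D+Gfra2+. Prefix P gave 47.5 and 157 CPM against 21.6 and 18.1 CPM, with 133 CPM in replicate 3. The sorts did not overlap without replicate 3, though the Ly6D+Gfra2- replicates lay more than 3 times apart (log2 fold change 2.44, SE 0.70). The calcium channel subunit gene Cacna2d2 was at 38.3 and 6.30 CPM in prefix T Ly6D+Gfra2-, at 0.672 to 3.88 CPM in Ly6D-Gfra2-, and in prefix P at 0 and 3.50 CPM against 6.55 and 6.49 CPM (log2 fold change -1.85, SE 2.28).

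Kinases, phosphatases and small GTPases were 14 members, of which Cdc14b, Dapk1, Ppm1l and Trib1 were higher in prefix P without overlap and Map3k3 and Phpt1 lower. Cdc14b, a dual-specificity phosphatase, was at 17.4 and 7.54 CPM in prefix T Ly6D+Gfra2-, at 1.93 to 2.28 CPM in Ly6D-Gfra2- and at 0 to 2.67 CPM in Ly6D+Gfra2+. Levels in prefix P were 53 and 11 CPM against 5.76 and 7.11 CPM, with 6.91 CPM in replicate 3 (log2 fold change 2.45, SE 1.12). It is 1 of the 3 among the 17 members for which replicate 3 did not lie above the other Ly6D-Gfra2- libraries of prefix P. Dapk1, a calcium-dependent kinase linked to cell death, was at 52.3 and 25.8 CPM in prefix T Ly6D+Gfra2- and at 13.3 to 20.6 CPM in Ly6D-Gfra2-, and in prefix P at 39.8 and 28.1 CPM against 18.5 and 10.7 CPM.

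Trib1, a pseudokinase, was at 44.2 and 66.5 CPM in prefix T Ly6D+Gfra2- but at 1.39 and 2.24 CPM against 1.13 and 0 CPM in prefix P, a separation that rests on few counts. Phpt1, a histidine phosphatase, was at 49.7 and 32.8 CPM in prefix T Ly6D+Gfra2- and at 9.41 to 20.5 CPM in Ly6D-Gfra2-. Prefix P libraries held 3.23 and 5.91 CPM against 51.5 and 11.3 CPM (log2 fold change -2.67, SE 1.17). Phospho1 overlapped in prefix P, at 3.61 and 17.2 CPM against 1.02 and 5.10 CPM. Rrad, at 14.7 and 8.66 CPM in prefix T Ly6D+Gfra2- and at 0 in the Gfra2+ libraries, had too few counts for the prefix P test.

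Genes of transcription and chromatin were 18 members, with 6 higher (Chd7, H2aw, Rfxap, Zfp119b, Zfp777 and Zfp952) and 2 lower (Zbtb49 and Zfat) in prefix P without overlap, beside 14.0% and 21.0% of all genes, and a median log2 fold change of 0.85. Rfxap, a subunit of the RFX complex that drives MHC class II genes, was at 33.1 and 28.1 CPM in prefix T Ly6D+Gfra2-, at 16.9, 15.9 and 6.81 CPM in Ly6D-Gfra2- and at 0, 10.1 and 7.68 CPM in Ly6D+Gfra2+. In prefix P it was at 40.5 and 21.1 CPM against 3.39 and 9.30 CPM, with 10.01 CPM in replicate 3. All 4 Ly6D+Gfra2- libraries lay above all 9 others (log2 fold change 2.38, SE 1.07). Chd7, a chromatin remodeller, was at 45.0 and 34.5 CPM in prefix T Ly6D+Gfra2- and at 2.02 to 5.97 CPM in Ly6D-Gfra2-, and in prefix P at 8.99 and 5.80 CPM against 2.48 and 4.87 CPM.

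The zinc finger genes of this group were less even. Zfp119b was at 16.5 and 4.61 CPM in prefix T Ly6D+Gfra2- and in prefix P at 1.77 and 0.986 CPM against 0 and 0 CPM, 46 counts in all, so its fitted log2 fold change of 7.53 depends on the prior count. Zfp775 was at 22.6 and 20.02 CPM in prefix T Ly6D+Gfra2- and at 5.37 to 12.4 CPM in Ly6D-Gfra2-. The prefix P levels were 93.1 and 3.18 CPM against 1.02 and 5.20 CPM, and its log2 fold change of 4.07 (SE 1.60) rested on replicate 1, since replicate 2 lay between the Ly6D-Gfra2- values.

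Other membrane receptors and adhesion proteins were 9 members. Lgr5, the R-spondin receptor known from stem cells of the gut, had the second-largest ratio in prefix T. It was at 11 and 12.1 CPM in Ly6D+Gfra2-, at 0.672, 0.0947 and 0 CPM in Ly6D-Gfra2- and at 0 in all Gfra2+ libraries. Prefix P did not repeat this, at 0 and 6.79 CPM against 16.7 and 1.86 CPM (log2 fold change -1.38, SE 2.27).

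Jam2, a junctional adhesion molecule, was at 45.0 and 8.55 CPM in prefix T Ly6D+Gfra2- and at 2.67 to 5.37 CPM in Ly6D-Gfra2-, and overlapped in prefix P, at 3.36 and 0.602 CPM against 0.903 and 0.0477 CPM. Gpnmb, a glycoprotein of macrophages and pigment cells, was at 2.45 and 30.0 CPM in prefix T Ly6D+Gfra2- and at 0 in the Gfra2+ libraries, and had too few counts in prefix P for the test. Tmem119, known as a microglial marker, was at 117 and 127 CPM against 101 and 39.7 CPM in prefix P.

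Of the 42 members placed under no other function, 5 were higher and 10 lower in prefix P without overlap. Tex2, a protein of the endoplasmic reticulum, was at 378 and 621 CPM in prefix T Ly6D+Gfra2-, at 161, 139 and 134 CPM in Ly6D-Gfra2- and at 360, 182 and 202 CPM in Ly6D+Gfra2+. Prefix P gave 533 and 454 CPM against 312 and 249 CPM, with 638 CPM in replicate 3 (log2 fold change 0.93, SE 0.28). The sorts were apart in both prefixes when replicate 3 is set aside.

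Several others of this set were lower or overlapping in prefix P. Ppp1r36 was at 12.2 and 13.4 CPM in prefix T Ly6D+Gfra2- and in prefix P at 0 and 0.219 CPM against 1.81 and 6.92 CPM (log2 fold change -5.17, SE 2.65). Fam184a was at 16.2 and 27.4 CPM in prefix T Ly6D+Gfra2- and in prefix P at 1.96 and 3.78 CPM against 8.92 and 29.2 CPM (log2 fold change -2.67, SE 1.35). Smim5 had close replicates in prefix T, at 35.6 and 42.4 CPM against 2.96 to 6.72 CPM in Ly6D-Gfra2-, yet in prefix P it was at 5.64 and 10.5 CPM against 16.4 and 15 CPM.

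Xkrx was at 53.8 and 38.2 CPM against 62.4 and 56.0 CPM in prefix P, and at 58.7 and 19.6 CPM in prefix T Ly6D+Gfra2-. Gm5617 spanned 1.81 to 42.3 CPM over the prefix P libraries and overlapped there. S100a13 was at 29.6 and 7.50 CPM against 11.6 and 4.20 CPM in prefix P, and Trim36, a ubiquitin ligase placed with protein degradation, was at 0 and 0.931 CPM against 7.79 and 0 CPM. Sidt1 and Plxna4os1 were at 24.02 and 2.47 CPM and at 21.4 and 5.51 CPM in prefix T Ly6D+Gfra2-, and neither had enough counts in prefix P for the test.

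**Figure D4:**
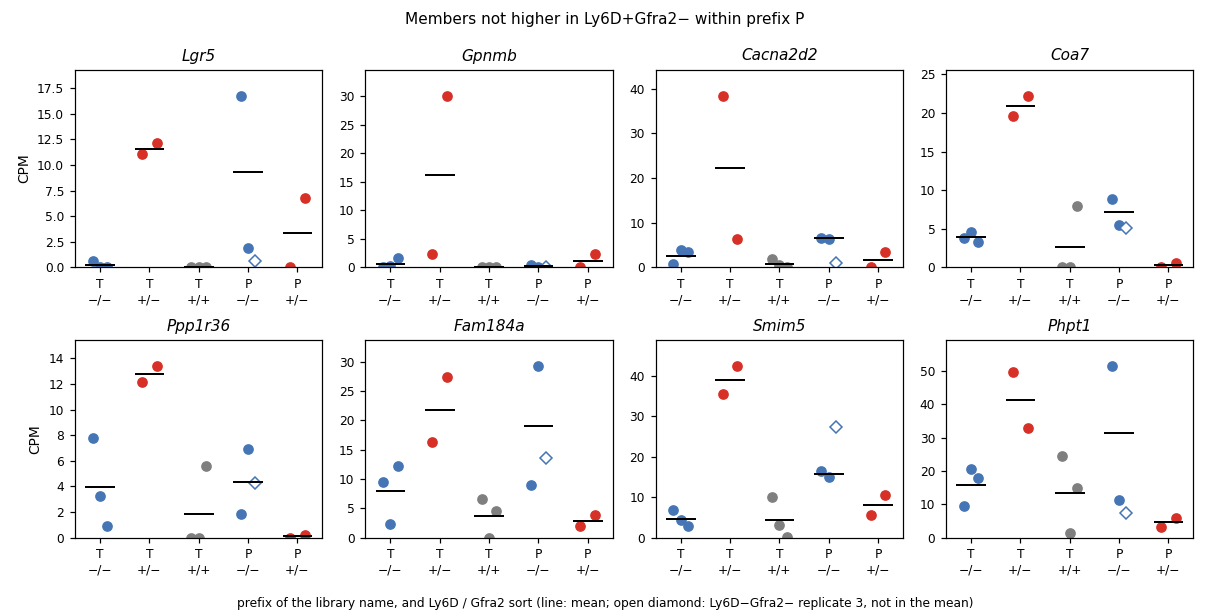
CPM in each library for 8 members that were not higher in prefix P by the test or the order of the libraries, drawn with the same columns and symbols as the plot of 12 of the 17 members. The red dots of prefix T stand above the other prefix T dots by the choice of members. Those of prefix P lie within or below the blue dots of prefix P, or near 0 for Gpnmb.

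The share of members higher in prefix P without overlap changed little with the size of the prefix T ratio. It was 6 of 24 (25%) for ratios of at least 5, 7 of 36 (19.4%) for ratios from 3 to 5 and 21 of 100 (21.0%) for smaller ratios. By prefix T level it was 15 of 61 (24.6%) from 50 CPM up, 11 of 57 (19.3%) from 20 to 50 CPM and 8 of 42 (19.0%) below.

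Genes known from plasmacytoid dendritic cells were the list with the most entries that met the prefix T rule, 9 of 30, namely Cd300c, Cox6a2, Cybb, Pld4 and Rnase6 among the members and the 4 genes left out. Of the 27 tested in prefix P, 0 were called by edgeR, 8 were higher without overlap and 0 lower, beside 14.0% and 21.0% of all genes, with a median log2 fold change of 0.19. The list summed to 11123 to 11852 CPM in prefix T Ly6D+Gfra2-, 7345 to 8360 CPM in Ly6D-Gfra2- and 6298 to 7005 CPM in Ly6D+Gfra2+. These prefix T sums include the 9 genes that met the rule, so nothing is read from their order. Dntt, which is also on the lymphoid progenitor list, made up 3252 to 4380 CPM of the sum over the 13 libraries. The sum in prefix P was 10001 to 10210 CPM against 8887 to 9071 CPM, and 11159 CPM in replicate 3. Klk1 and Cd209d were at 0 in every Ly6D+Gfra2- library. In bulk RNA, fewer cells of a type and less RNA per cell cannot be told apart, and the part of such cells in the result was not tested.

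The list for B-lineage cells, with 26 genes, had 0 that met the rule. It summed to 2683 to 3171 CPM in prefix T Ly6D+Gfra2-, 1680 to 1864 CPM in Ly6D-Gfra2- and 7972 to 8696 CPM in Ly6D+Gfra2+, so its level was highest where the members were lowest. In prefix P, 8 of the 16 tested were higher without overlap and 0 lower, against the same shares of all genes. The T-lineage list gave 2 members (Cd28 and Thy1) with Ptcra and Cd2 at 0 in Ly6D+Gfra2- libraries, and the innate lymphoid list gave 2 (Il17rb and Il2rb) with Eomes and Ncr1 at 0 there. The granulocyte and monocyte list had 0 members, and in prefix P 0 of its 12 tested genes were higher and 5 were lower without overlap, where 21.0% of all genes were lower. It summed to 523 to 558 CPM in the prefix P Ly6D+Gfra2- libraries and to 1518 to 1676 CPM in Ly6D-Gfra2- replicates 1 and 2, and its part in the members' values was not tested.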

How the data were processed

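The deposited values are raw counts per RefSeq identifier, 1 file for each library, per the file headers. The submitters' processing notes name FastQC, HISAT, TopHat, HOMER, DESeq and mm10 without roles or versions, and the kits, per the labels' protocols, were Qiagen micro columns for RNA and NuGEN Ovation kits for libraries. Strand setting and treatment of reads that map more than once are not given in the sources used here. Of 24072 identifiers, 23815 were named from RefSeq (GRCm38.p6, the mm10 assembly), 144 from GENCODE and 113 not at all. NR_046233 was left out of library sizes and tests. CPM are counts per 1000000 of the remaining sum.

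The members, the gene lists and the rule for naming genes were chosen with earlier results of these data known. Named members are the 20 with the largest prefix T ratio, the 12 with the smallest p and a positive change in prefix P, the 5 lowest there, those in any gene list, and those nearest the thresholds, together with Ly6d and Gfra2. Other members were named after their values were seen. Prefix P was fitted in R 4.3.3 by the quasi-likelihood test of edgeR 4.0.16 (TMM, filterByExpr with a minimum count of 10 and total of 15, two-sided, Benjamini-Hochberg over 12110 genes). The 5 members it did not keep were Fhod3, Sidt1, Gpnmb, Plxna4os1 and Rrad. The SE printed with a log2 fold change is the absolute fold change divided by the square root of the F statistic of that test. Alternatives were DESeq2 1.42.0, limma 3.58.1 voom, other scalings and filters, a replicate block and each library left out. Scripts were tested on simulated data. Promoters come from RefSeq.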

Additional observations from a re-analysis of the deposited data

Results flagged for a closer look

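Among groups of 4 or 6 libraries, 84 groups of named members were examined for a single library set apart from the others by a gap above Dixon's 95% limit, and 21 were found. For independent, normally spread values chance alone gives about 1 in 20. These groups share the same libraries and pool both prefixes, and the named members were picked partly by these values. The number found is therefore description and is not set against that rate. Of the 21, 10 were the library labelled Ly6D-Gfra2- replicate 3. It stood above the other 5 Ly6D-Gfra2- libraries for Tfrc (1049 CPM), Tex2 (638 CPM), Ly6d (239 CPM), Atp1b1 (133 CPM), Lifr (110 CPM), Carmil1 (64.0 CPM), Strip2 (57.7 CPM), Cd300c (7.24 CPM), Sidt1 (3.32 CPM) and Fhod3 (1.52 CPM). Ly6D-Gfra2- replicate 1 stood apart for Phpt1 (51.5 CPM), Gm5617 (42.3 CPM), Lgr5 (16.7 CPM) and S100a13 (11.6 CPM), and replicate 6 for Gpnmb (1.63 CPM).

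Within the 4 Ly6D+Gfra2- libraries, replicate 1 stood apart for Cox6a2 (483 CPM). Replicate 5 did so for Cacna2d2 (38.3 CPM) and Sidt1 (24.02 CPM), and replicate 6 for Strip2 (67.5 CPM), Gpnmb (30.0 CPM) and Cd300c (16.98 CPM).

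Of the 26 members that were lower without overlap in prefix P, 7 were picked by the rule for naming members. For these 7, every Ly6D+Gfra2- library lay above every Ly6D-Gfra2- library in prefix T and below both in prefix P, a difference between prefixes that was not tested. Their prefix P log2 fold changes were -5.17 for Ppp1r36, -4.48 for Coa7, -2.67 for both Phpt1 and Fam184a, -1.85 for Cacna2d2, -0.87 for Smim5 and -0.25 for Xkrx.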

How the results depend on the processing

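In prefix P, edgeR called 0 genes; 83 were called with no filter on low counts, 89 by DESeq2, 10 with a replicate block (a fit in which same-numbered libraries were paired) and 2 to 1350 with 1 library left out, the most without Ly6D+Gfra2- replicate 2. Members called numbered 4, 5, 1 (Ly6d) and 0 to 14 in those fits. The labels do not say whether same-numbered libraries belong together. The correlation of their deviations was -0.00036 over 12110 genes, which cannot settle this with 2 libraries of each sort. Members at an unadjusted p under 0.05 and higher numbered 4 with Ly6D-Gfra2- replicate 3 and 7 to 21 with 1 library left out. Members higher without overlap numbered 14 with that replicate (8.64%, beside 7.99% of all genes). They numbered 54 to 63 with 1 library left out, where fewer libraries can overlap. Shares over all genes were not taken for these counts with 1 library left out, so nothing is read from them. The rule gave 312 genes at 1.5-fold, 65 at 3-fold, and 186 to 516 with 1 prefix T library left out, the most without a Ly6D+Gfra2- library. The causes of the other shifts were not tested.

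Log2 fold changes in prefix P that turned sign with replicate 3 were those of Cd300c (-1.09), Jam2 (-0.62), Thy1 (-0.21) and Pld4 (-0.20). Gm5617 turned with library size alone (-0.15), Il2rb with limma voom (0.24) and the replicate block (0.83), and Thy1 with the block (-0.070). With 1 library left out, the ranges that crossed 0 were -10.04 to 0.87 for Lgr5, -8.78 to 6.09 for Trim36, -7.19 to 4.97 for Thy1, -2.09 to 3.57 for Gm5617, -1.56 to 3.88 for Il2rb, -1.42 to 0.62 for Acsbg3, -0.60 to 0.033 for Xkrx, -0.53 to 1.02 for Pld4, -0.28 to 1.70 for Cd300c, -0.19 to 0.55 for Cd28 and -0.023 to 2.24 for S100a13.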

Other observations

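Several members lie beside another member within 100000 bases. Besides Il17rb, Chdh and Cacna1d on chromosome 14, these were Elp5 and Phf23 on chromosome 11 (14319 bases apart), Nudcd1 and Eny2 on chromosome 15 (overlapping), Cops6 and Lamtor4 on chromosome 5 (91498 bases apart) and Cox6a2 and 9130023H24Rik on chromosome 7 (28085 bases apart). In prefix P, Cox6a2 and its neighbour 9130023H24Rik were both higher without overlap, the latter at 48.6 and 18.6 CPM against 16.1 and 11.2 CPM, whereas Cops6 and Lamtor4 were both lower. Elp5 was lower and Phf23 overlapped. These pairs were picked out after their values were seen.

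The smaller groups of function were mixed in prefix P. Of 8 members of RNA processing and ribosome assembly, Slirp was higher without overlap and 3 were lower (Cwc25, Elp5 and Mrm1), and of 9 members of protein folding and degradation, Vhl, the substrate receptor of a ubiquitin ligase for hypoxia-inducible factors, was higher and 2 were lower. The 4 members of the extracellular matrix (Lamb2, Loxl4, Plod1 and Angptl1) overlapped. Vhl was at 10.7 and 15.3 CPM in prefix T Ly6D+Gfra2- and in prefix P at 31.3 and 25.5 CPM against 13.3 and 12.3 CPM, with 10.4 CPM in replicate 3.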
